A study of Mus musculus with 10 samples.

Results

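The transcripts described here are 3 long noncoding RNAs, Neat1, Malat1 and Gas5, taken by their names from a count table of 23284 genes measured in mouse macrophages. Neat1 was chosen because its level was lower at the high dose of the stimulus, so every value of Neat1 that rests on a 10 nM library is given as a description with no test. The choice does not say against which group the level was lower, and the untreated or low-dose libraries may have entered it. Malat1 and Gas5 were chosen by name, with earlier results of these data known.

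The cells were macrophages grown from the bone marrow of C57BL/6J mice for 6 days in medium with 30 ng/ml recombinant M-CSF, the growth factor that drives marrow progenitors into macrophages. The cells were left untreated or were exposed to Kdo2-lipid A, the membrane anchor of bacterial endotoxin, which activates the receptor TLR4. Exposure lasted 1 h or 2 h and the dose was 0.03 nM or 10 nM. Each of these 5 groups has 2 libraries, 1 from experiment 1 and 1 from experiment 2, and no untreated culture was kept for 1 h or 2 h, so a change against untreated cells and a change with time or handling cannot be told apart. The labels do not say whether the experiments used different mice, and p-values measure only the spread between these libraries.

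Neat1 is the RNA scaffold of paraspeckles, nuclear bodies that hold RNA-binding proteins such as Nono, Sfpq and Pspc1. A short and a long form start at the same site, and the long form is the one on which paraspeckles are built. Malat1 is an abundant RNA of nuclear speckles, the bodies that store splicing factors, and lies next to Neat1 in the genome. Gas5 is the spliced host of a row of small nucleolar RNAs that are cut from its introns. Its spliced RNA starts with a run of pyrimidines like that of ribosomal protein mRNAs, carries a short open reading frame, and is degraded by nonsense-mediated decay when it is translated.

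On the mm9 build used for counting, Malat1 covered chr19:5795690-5802671 and Neat1 chr19:5842302-5845478, both on the minus strand, each as 1 exon of 6982 and 3177 bases. The spans were 39630 bases apart and no other gene of the table overlapped either. The counted Neat1 model has the length of the short form only. In the GENCODE annotation of the later GRCm38 build the longest Neat1 transcript has 20771 bases, and reads from the first 3177 bases of the long form are counted together with the short form. Gas5 covered chr1:162965297-162968668 on the plus strand in 4 exon blocks with 2554 exonic bases, of which 2382 lay in the first block. GENCODE lists 25 Gas5 transcripts, 20 of them with a retained intron and the shortest of 346 bases, so the Gas5 count mixes spliced and intron-holding RNA. Mir5117 and Snord47 lie inside the Gas5 span on the same strand. The sources used here do not state whether reads were counted by strand.

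The RNA was selected by its poly(A) tail, so the 3' ends decide which forms can enter a library. They are shown here from GENCODE M21 on GRCm38. The first 3 lines give the end of the short Neat1 form and 2 stretches of Malat1, and the last 2 lines give the start and the end of the spliced 346-base Gas5 transcript. Capitals mark the poly(A) signal in the lines for the end of short Neat1, the end of the Malat1 model and the end of Gas5, the A-rich tract in the other Malat1 line and the pyrimidine run at the start of Gas5.
Neat1-201, bases 3118 to 3177 of 20771: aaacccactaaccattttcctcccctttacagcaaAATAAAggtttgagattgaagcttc
Malat1-201, bases 6634 to 6731 of 6983: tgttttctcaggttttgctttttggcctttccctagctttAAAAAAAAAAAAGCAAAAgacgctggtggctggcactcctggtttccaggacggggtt
Malat1-201, bases 6924 to 6983 of 6983: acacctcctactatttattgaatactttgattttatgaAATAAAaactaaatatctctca
Gas5-209, bases 1 to 60 of 346: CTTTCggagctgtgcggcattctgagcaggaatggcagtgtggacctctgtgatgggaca
Gas5-209, bases 287 to 346 of 346: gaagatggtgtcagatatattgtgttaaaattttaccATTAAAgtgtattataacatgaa
The short Neat1 form ends at base 3177, which is also where the counted model ends. Mature Malat1 is known to end at the A-rich tract, where RNase P cuts off a tRNA-like small RNA that starts just after it, and the tract is held in a triple helix in place of a tail. The long Neat1 form ends in the same way. How well poly(A) selection recovered RNAs with such ends was not tested.

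The RefSeq table of promoters on GRCm38.p6 held windows of 300 bases, 250 before and 50 after the start, for Malat1 and Gas5. One of the 2 Gas5 windows ends in the start of the spliced transcript printed in the lines before. It is shown because it holds a complete cyclic AMP response element and Gas5 is the member whose fall could be tested. Capitals mark TGACGTCA, whose first base is 46 bases before the start, and GGGCGG or its reverse complement.
Gas5 promoter, GRCm38.p6 chr1:161034916-161035215, plus strand: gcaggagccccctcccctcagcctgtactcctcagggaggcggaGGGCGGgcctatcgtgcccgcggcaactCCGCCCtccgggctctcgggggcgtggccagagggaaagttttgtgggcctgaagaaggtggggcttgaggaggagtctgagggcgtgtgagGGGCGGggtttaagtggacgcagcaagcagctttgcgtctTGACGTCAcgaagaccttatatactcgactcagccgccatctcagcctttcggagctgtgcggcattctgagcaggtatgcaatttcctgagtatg
TGACGTCA on either strand was found in 1.79% of the 32851 promoter windows and GGGCGG in 35.7%. The search also covered, on both strands, the NF-kB motif (4.51% of windows), the AP-1 motif TGANTCA (7.81%), the heat shock motif GAANNTTC (7.86%), the E-box CACGTG (7.15%), the ETS motif CGGAAG (16.9%) and the STAT motif TTCNNNGAA (8.3%). One GGGCGG of the other Gas5 window overlaps its CGGAAG. None of these 8 motifs was found in the Malat1 window, and the other Gas5 window held GGGCGG and CGGAAG. A match describes letters and not a bound site.

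Library totals ran from 33179599 to 42167096 reads counted to genes. The stimulus was visible in its target genes: Tnf, an inflammatory cytokine gene, had a mean of 8.82 TMM-scaled CPM (counts scaled to a common library size) in untreated cells, 158 and 233 at 0.03 nM for 1 h and 2 h, and 3750 and 1820 at 10 nM. The 8 macrophage markers summed to between 27100 and 31000 CPM in the untreated, 0.03 nM and 10 nM 1 h libraries and to between 24000 and 25600 at 10 nM 2 h. The 6 T and NK cell markers summed to at most 1.02 in those first 4 groups and to between 4.03 and 4.82 at 10 nM 2 h. Only 1 of these 6 had enough counts to be tested. Neutrophil markers summed to at most 29.6, stromal and endothelial markers to at most 94.5, and 3 of 5 mast cell markers were at 0. TMM scaling divides such sums by 1.145 and 1.153 for the untreated libraries and by 0.7878 and 0.7746 at 10 nM 2 h. On the TMM scale the macrophage sum at 10 nM 2 h is therefore not lower than in untreated cells. In bulk RNA, fewer cells of a type and less RNA per cell cannot be told apart, and the part of these shifts in the results was not tested. Library scaling matters at 10 nM: scaling by library totals in place of TMM moved the median gene by -0.367 on the log2 scale for 10 nM 1 h against untreated and by -0.556 for 10 nM 2 h, and by at most -0.068 for 0.03 nM. All differences are therefore given relative to the bulk of genes, which TMM sets near 0.

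Neat1 stood at 461 and 567 CPM in the untreated libraries of experiments 1 and 2. It stood at 844 and 926 at 0.03 nM 1 h and at 695 and 891 at 0.03 nM 2 h. It stood at 233 and 286 at 10 nM 1 h and at 433 and 422 at 10 nM 2 h. Both low-dose groups lay above both untreated libraries, both high-dose groups lay below them, and the libraries at 10 nM 1 h were the lowest of all. The group means with their SD (n = 2 each) were 514 ± 74.9 untreated, 885 ± 58.3 and 793 ± 139 at 0.03 nM, and 259 ± 37.7 and 427 ± 8.12 at 10 nM.

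Malat1 was more even, with the exception of 1 library. It stood at 1460 and 1630 CPM in untreated cells and at 1660 and 1670 at 0.03 nM 1 h. At 0.03 nM 2 h the libraries stood at 1870 in experiment 1 and 1090 in experiment 2, the latter the lowest of the 10 libraries. At 10 nM it stood at 2260 and 1960 after 1 h and at 1910 and 1720 after 2 h. All 4 high-dose libraries lay above both untreated libraries, while the 0.03 nM 2 h pair spanned them.

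Gas5 stood at 64.3 and 63.4 CPM in untreated cells, at 64.7 and 57.8 at 0.03 nM 1 h and at 66.9 and 74.0 at 0.03 nM 2 h. At 10 nM it stood at 54.0 and 49.9 after 1 h and at 48.9 and 44.6 after 2 h. The 4 high-dose libraries were the 4 lowest. The ratio of the highest to the lowest library was 3.98 for Neat1, 2.07 for Malat1 and 1.66 for Gas5.

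**Figure D1:**
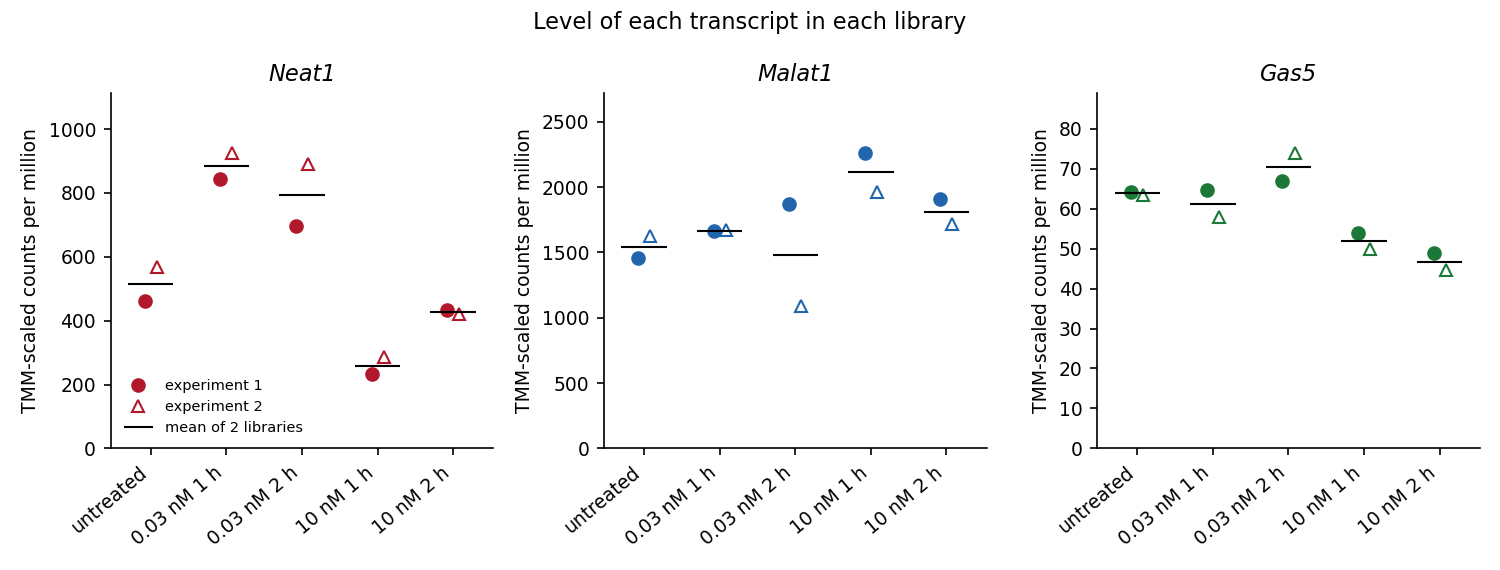
TMM-scaled CPM (vertical axes, from 0) of Neat1, Malat1 and Gas5 in each library of the 5 groups (horizontal axes), with filled circles for experiment 1, open triangles for experiment 2 and bars for the mean of the 2 libraries. Neat1 is above untreated at 0.03 nM and below it at 10 nM, Malat1 has 1 low library at 0.03 nM 2 h (1090), and the 4 Gas5 libraries at 10 nM are the lowest.

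Per kilobase of exonic length, as RPKM from the TMM-scaled counts, Neat1 and Malat1 were of similar level in resting cells, with means of 162 for Neat1 and 221 for Malat1. Gas5 had a mean of 25.0 RPKM there. How well poly(A) selection recovered each RNA was not tested. Levels of different RNAs in these libraries may therefore not give their relative amounts in the cells. The length of the Gas5 model includes intron sequence, which lowers its value per kilobase relative to a spliced length. The ratio of Neat1 to Malat1 within a library does not depend on scaling between libraries. It was 0.693 and 0.766 in untreated cells, 1.12 and 1.22 at 0.03 nM 1 h, 0.226 and 0.32 at 10 nM 1 h and 0.498 and 0.54 at 10 nM 2 h. Neat1 thus passed Malat1 per kilobase in both libraries at 0.03 nM 1 h and fell to less than either untreated ratio at 10 nM. At 0.03 nM 2 h the ratios were 0.815 and 1.79, the higher one in experiment 2, where Malat1 was low. Among the 12918 genes tested, the rank of Neat1 by RPKM ran from 195 in its highest library to 1118 in its lowest, that of Malat1 from 237 to 445 and that of Gas5 from 2431 to 3991.

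**Figure D2:**
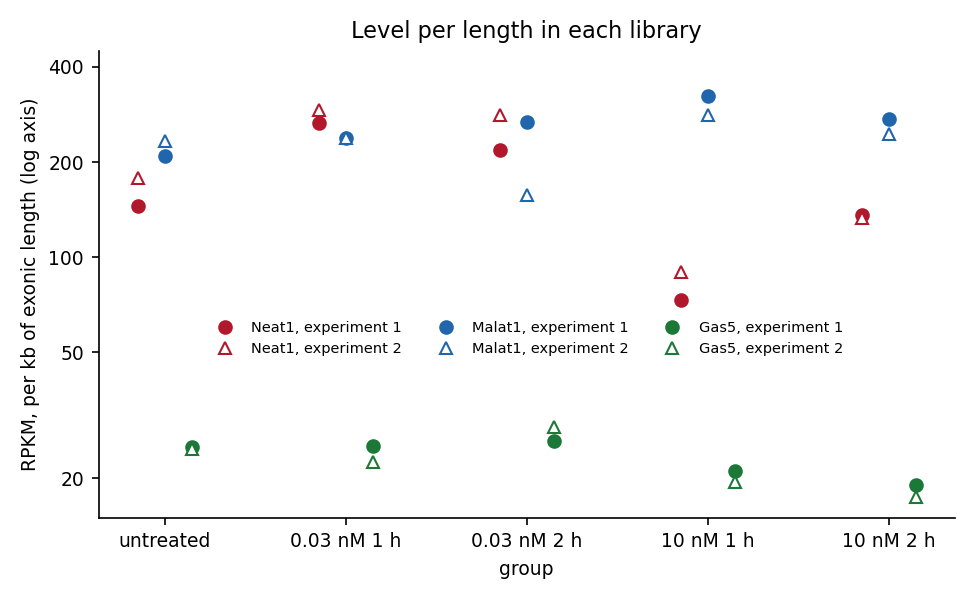
RPKM per kilobase of exonic length (vertical axis, logarithmic) of Neat1, Malat1 and Gas5 in each library of the 5 groups (horizontal axis), with filled circles for experiment 1 and open triangles for experiment 2. Neat1 and Malat1 change places between 0.03 nM 1 h (ratios 1.12 and 1.22) and 10 nM 1 h (0.226 and 0.32), and Gas5 lies lowest throughout.

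Does a dose of 0.03 nM change Neat1? After 1 h Neat1 was 1.72-fold higher than in untreated cells, a log2 difference of 0.79 ± 0.14 (SE, 2 libraries against 2), with 0.87 in experiment 1 and 0.71 in experiment 2. The edgeR quasi-likelihood test gave an adjusted p of 0.019, with p-values adjusted by Benjamini-Hochberg over 12918 genes and called below 0.05. The untreated or low-dose libraries may have entered the choice of Neat1, so its p-values at 0.03 nM may be too small. In this comparison 1.53% of all genes tested were called, 1.42% higher and 0.108% lower. After 2 h Neat1 was 1.54-fold higher, a log2 difference of 0.63 ± 0.14, with 0.59 and 0.65 in the experiments and an edgeR adjusted p of 0.017. There 9.82% of all genes tested were called, 6.45% higher and 3.37% lower. From 1 h to 2 h at 0.03 nM the log2 difference was -0.16 ± 0.14 with an edgeR adjusted p of 0.604, the groups overlapped, and 5.11% of genes were called, 3.51% higher and 1.59% lower.

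Both low-dose calls depend on single libraries. Without the untreated library of experiment 1 the edgeR adjusted p was 0.205 at 1 h and 0.149 at 2 h. Without the 0.03 nM 1 h library of experiment 2 it was 0.187 at 1 h. Without the 0.03 nM 2 h library of experiment 2 it was 0.054 at 1 h and 0.186 at 2 h. The log2 difference stayed between 0.64 and 0.94 at 1 h and between 0.45 and 0.79 at 2 h when any 1 library was left out. A correction for a trend with exonic length gave 0.119 and 0.0587, and fitting only the groups compared gave 0.0582 at 2 h. With the experiment as a block the calls were kept.

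At 10 nM Neat1 is described without a test, since these values chose it. After 1 h it was 1.98-fold lower than in untreated cells, a log2 difference of -0.99 ± 0.14, with -0.98 in experiment 1 and -0.99 in experiment 2. It was 3.41-fold lower than at 0.03 nM 1 h, a log2 difference of -1.77 ± 0.14. After 2 h it was 1.2-fold lower than in untreated cells, a log2 difference of -0.27 ± 0.14, with -0.09 and -0.43 in the experiments. The level at 2 h was therefore close to the untreated one in experiment 1, though the groups did not overlap. Between 1 h and 2 h at 10 nM Neat1 rose from 259 to 427 CPM, a log2 difference of 0.72 ± 0.14 with 0.9 and 0.56 in the experiments. Scaled by library totals, the difference from untreated was -1.35 at 1 h and -0.82 at 2 h. In order of mean level the groups ran from 10 nM 1 h over 10 nM 2 h, untreated and 0.03 nM 2 h to 0.03 nM 1 h, and only the last pair overlapped.

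For Malat1 none of the 9 comparisons was called by edgeR, and none had an unadjusted p below 0.05. DESeq2 and limma on the deposited rlog values called none either. The largest difference was at 10 nM 1 h against untreated, where Malat1 was 1.37-fold higher with a log2 difference of 0.45 ± 0.22 (95% interval -0.05 to 0.96), 0.63 and 0.27 in the experiments and an edgeR adjusted p of 0.147. In that comparison 36.9% of genes were called, 18.5% higher and 18.3% lower. At 10 nM 2 h the log2 difference from untreated was 0.23 with an interval of -0.27 to 0.74 and an edgeR adjusted p of 0.394, where 58.7% of genes were called. At 0.03 nM it was 0.11 after 1 h (interval -0.39 to 0.61) and -0.06 after 2 h (interval -0.56 to 0.45). Scaled by library totals, the 10 nM difference from untreated was 0.09 at 1 h and turned to -0.32 at 2 h.

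The error of Malat1 comes mostly from the 0.03 nM 2 h pair, and this pair also stood apart over all genes. Between the 2 libraries of that group, the log2 difference of experiment 2 from experiment 1 fell with exonic length over 10333 genes, with a Spearman rho of -0.617 against -0.0142 to 0.296 in the other groups. Genes share these 2 libraries and are not independent, so this rho is a description. Malat1, with 6982 exonic bases, was corrected by this trend from 1090 to 1310 CPM in experiment 2 and from 1870 to 1830 in experiment 1. Without the experiment 1 library of that group, Malat1 at 10 nM 1 h against untreated had a log2 difference of 0.46 and an edgeR adjusted p of 0.000524. Without the experiment 2 library it had 0.45 and 0.000657, and with only the groups compared 0.46 and 0.000769. At 10 nM 2 h against untreated the same 3 fits gave edgeR adjusted p-values of 0.0221, 0.0357 and 0.0192. The differences at 10 nM thus hardly moved, while their error did. For 0.03 nM 2 h against untreated the sign depended on which library was kept, with -0.50 and an edgeR adjusted p of 0.00339 without experiment 1 and 0.29 and 0.0886 without experiment 2. No direction is given for Malat1 in that group.

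Gas5 fell at 10 nM and passed no test at 0.03 nM. At 10 nM 1 h it was 1.23-fold lower than in untreated cells, a log2 difference of -0.30 ± 0.09, with -0.25 and -0.35 in the experiments and an edgeR adjusted p of 0.0196. At 10 nM 2 h it was 1.37-fold lower, a log2 difference of -0.45 ± 0.09, with -0.39 and -0.51 in the experiments and an edgeR adjusted p of 0.000917. There 30.1% of all genes tested were called lower, against 18.3% at 1 h, so a fall of this kind was common among genes. Scaled by library totals, the difference from untreated was -0.67 at 1 h and -1.01 at 2 h. At 0.03 nM the log2 difference from untreated was -0.06 ± 0.09 after 1 h with an edgeR adjusted p of 0.997, and 0.14 after 2 h with an edgeR adjusted p of 0.387. From 1 h to 2 h at 0.03 nM it was 0.20 ± 0.09, and the groups did not overlap. The edgeR p there was 0.042 before adjustment and 0.254 after it.

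Between the doses, Gas5 was 1.51-fold lower at 10 nM than at 0.03 nM after 2 h, a log2 difference of -0.59 ± 0.09 with -0.45 and -0.73 in the experiments and an edgeR adjusted p of 0.000139. Scaled by library totals it was -1.08. In that comparison 52.8% of genes were called and 27.2% were lower. After 1 h the log2 difference between the doses was -0.24 with an edgeR adjusted p of 0.0558, while 35.3% of genes were called. The difference between these effects at 2 h and at 1 h, the interaction of dose and time, was -0.35 ± 0.13 on the log2 scale with an edgeR adjusted p of 0.0666, and 22% of genes were called for it, 10.4% with a positive sign. From 1 h to 2 h at 10 nM the log2 difference was -0.15 with an edgeR adjusted p of 0.198, where 42.8% of genes were called. The 2 h calls were kept in every alternative tried. The 1 h call against untreated was lost without the 10 nM 1 h library of experiment 2 (edgeR adjusted p = 0.165) and without either untreated library (0.101 and 0.077).

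**Figure D3:**
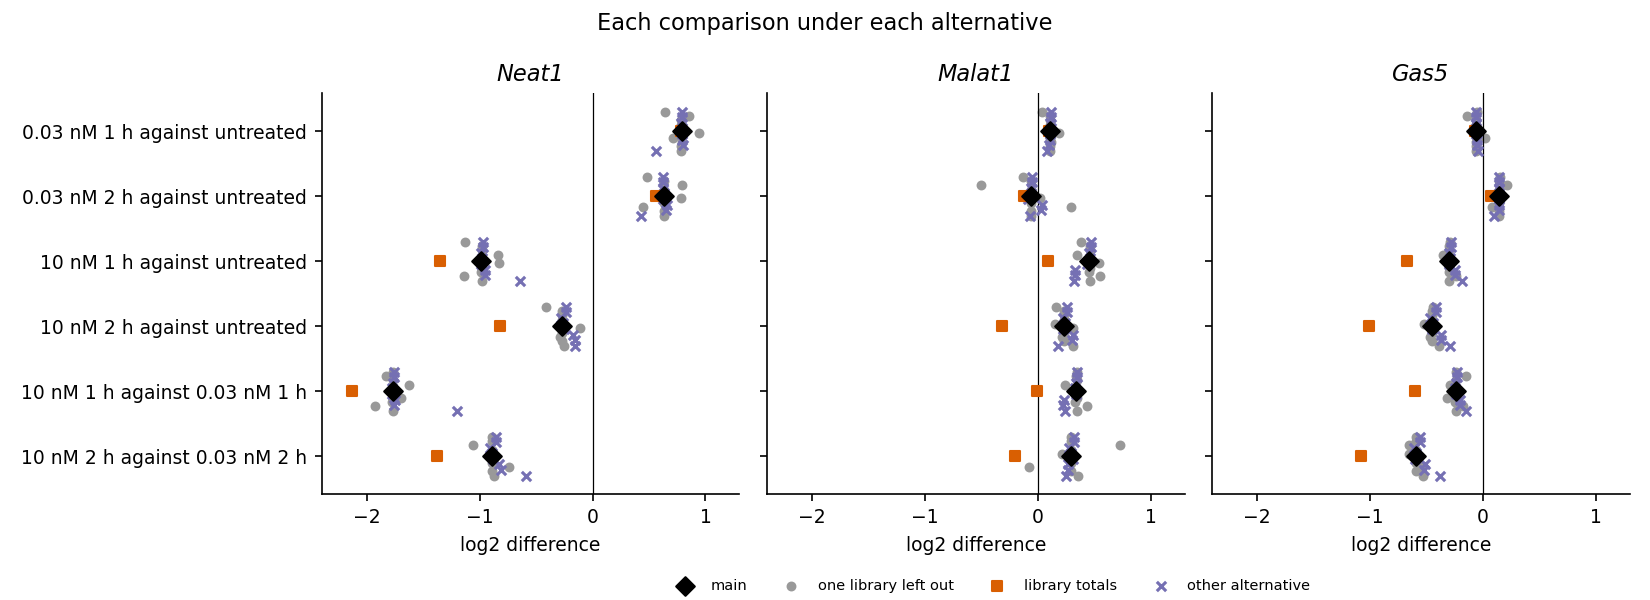
Log2 difference (horizontal axes) of Neat1, Malat1 and Gas5 in 6 comparisons (vertical axis), with a black diamond for the value reported, grey circles for fits without 1 library, an orange square for scaling by library totals and purple crosses for the other alternatives. Neat1 keeps its sign throughout, Malat1 lies on both sides of 0 for 0.03 nM 2 h (-0.50 to 0.29), and library totals move every 10 nM value downwards.

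The joint list of paraspeckle proteins and factors that set the Neat1 3' end held more genes called higher than lower at 10 nM with TMM scaling. With library totals it held more genes called lower than higher. The 3' end factors did not all rise. From untreated to 10 nM 2 h, mean CPM went from 78.2 to 71.6 for Cpsf6 and from 26.2 to 26.1 for Nudt21. It went from 62.8 to 88.5 for Cpsf7. Of 24 listed genes, all tested, 11 were called higher and 2 lower at 10 nM 1 h against untreated, and 18 higher and 4 lower at 10 nM 2 h. The median log2 difference was 0.16 at 1 h and 0.42 at 2 h, beside -0.02 and -0.03 over all genes tested, where 18.5% and 28.6% of genes were called higher. Scaled by library totals, these counts turned to 3 higher and 12 lower at 1 h and 5 higher and 10 lower at 2 h, with medians of -0.21 and -0.13 beside -0.38 and -0.59 over all genes. Over all genes, 50.3% of the calls at 10 nM 1 h were higher with TMM and 15.9% with library totals, and 48.8% and 19.4% at 2 h. With library totals 9.91% of all genes were called higher and 52.3% lower at 1 h, and 14.7% and 61.1% at 2 h.

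Among the core proteins, Sfpq had a log2 difference from untreated of 1.02 at 10 nM 1 h and 1.35 at 2 h, with edgeR adjusted p-values of 5.67e-07 and 2.21e-08. Pspc1 had 1.07 and 1.6, with 4.39e-06 and 6.14e-08. Nono, the partner of both, had 0.11 at 1 h with an edgeR adjusted p of 0.269 and rose by 0.53 at 2 h with 3.14e-05. The nuclear protein Akap8l fell by 1.11 at 2 h. Scaled by library totals, Sfpq had 0.65 and 0.80 and Pspc1 0.71 and 1.04, all called, whereas Nono had -0.26 at 1 h and -0.02 at 2 h.

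At the low dose 1 gene of the list was called at 1 h, Cirbp, a cold-inducible RNA-binding protein. At 2 h 3 were called higher: Cirbp, Hnrnpa1 and Pspc1. Over all genes 1.42% were called higher at 1 h and 6.45% at 2 h. With library totals only Cirbp was called at either time. Cirbp moved in both directions as Neat1 did. Its log2 difference from untreated was 0.48 at 0.03 nM 1 h and 0.44 at 0.03 nM 2 h, with edgeR adjusted p-values of 0.0307 and 0.0116. At 10 nM it was -0.44 and -0.35, with 0.00382 and 0.00852. Between the doses it was -0.92 at 1 h and -0.80 at 2 h.

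Of 26 listed nuclear speckle proteins and Malat1-processing factors, 25 were tested. At 10 nM 1 h against untreated 8 were called higher and 4 lower, and at 2 h 13 higher and 2 lower, with medians of 0.00 and 0.34 beside -0.02 and -0.03 over all genes. Over all genes 18.5% were called higher and 18.3% lower at 1 h, and 28.6% and 30.1% at 2 h. With library totals the counts turned to 1 higher and 13 lower at 1 h and to 2 higher and 14 lower at 2 h. On that scale 9.91% of all genes were called higher and 52.3% lower at 1 h, and 14.7% and 61.1% at 2 h. The splicing factors Srsf5 and Srsf3 rose by 0.83 and 0.86 at 2 h, and Sf3b1, a core protein of the U2 particle, rose by 0.64 at 1 h and at 2 h. With library totals Sf3b1 had 0.08 at 2 h with an edgeR adjusted p of 0.381. Srsf1, which Malat1 is known to bind, had 0.00 and -0.02, with edgeR adjusted p-values of 0.978 and 0.822. Srsf2 had -0.21 at 1 h with 0.0284 and 0.07 at 2 h with 0.379, and the speckle scaffold Son had 0.28 with 0.105 and 0.34 with 0.0387. Scaled by library totals, Srsf1 had -0.36 and -0.58 and Srsf2 -0.58 and -0.48, all called. Son had -0.08 and -0.22 on that scale and was not called. Rpp14, a subunit of RNase P, the enzyme that cuts the Malat1 3' end, fell by 0.75 and 1.11. The other tested subunits of RNase P did not move in 1 common direction. From untreated to 10 nM 2 h, mean CPM went from 6.73 to 10.9 for Pop1 and from 15.8 to 22.1 for Pop4. It went from 8.55 to 9.06 for Rpp30 and from 1.05 to 1.55 for Rpp40. For Pop5 it went from 7.04 to 4.94 and for Rpp38 from 2.24 to 2.0. The means at 10 nM 1 h were 0.965 for Rpp38, 5.19 for Pop5 and 6.25 for Pop1. They were 15.8 for Pop4, 8.45 for Rpp30 and 1.26 for Rpp40. At 0.03 nM 2 h 2 genes were called higher and 1 lower, beside 6.45% and 3.37% of all genes. At 0.03 nM 1 h edgeR called 0 of 25, beside 1.53% of all genes. There 2 had an unadjusted p below 0.05 and 0 were called by DESeq2.

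Of 21 other listed noncoding hosts of small nucleolar RNAs, 13 were in the table and 12 were tested. At 10 nM 2 h against untreated 1 was called higher and 4 lower, with a median of -0.07, where 28.6% of all genes were called higher and 30.1% lower, so that the share of lower hosts was near that of all genes. Against 0.03 nM 2 h 1 was higher and 5 lower, with a median of -0.30, beside 25.6% and 27.2% of all genes. The lower ones against untreated were Snhg7 with a log2 difference of -1.31, 2410006H16Rik (now Snhg29) with -1.12, Snhg12 with -0.59 and Snhg10 with -1.3. Snhg10 was named after its value was seen, to complete the count. The higher one was Zfas1, listed as 1500012F01Rik, with 1.27 and an edgeR adjusted p of 3.71e-06. Snhg1 had 0.11 with an edgeR adjusted p of 0.527. Scaled by library totals, Snhg1 had -0.45 with an edgeR adjusted p of 0.0134. Gas5, at -0.45 with TMM scaling, lay between the lower hosts and the higher one. At 10 nM 1 h 1 was called higher and 2 lower, among them Snhg3 at -0.59, beside 18.5% and 18.3% of all genes. With library totals the counts against untreated were 0 higher and 5 lower at 1 h and 1 higher and 8 lower at 2 h. On that scale 9.91% of all genes were called higher and 52.3% lower at 1 h, and 14.7% and 61.1% at 2 h. At 0.03 nM 1 h edgeR called 0 of 12, beside 1.53% of all genes. There 0 had an unadjusted p below 0.05 and 0 were called by DESeq2.

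Of 19 listed factors of nonsense-mediated decay, which degrades translated Gas5, 17 were tested, and 9 were called higher and 4 lower at 2 h against untreated, with a median of 0.38, against 4 higher and 4 lower at 1 h, with a median of 0.12. Over all genes 28.6% were called higher and 30.1% lower at 2 h, and 18.5% and 18.3% at 1 h, near the shares of this list at 1 h. The release factors Etf1 and Gspt1 rose most clearly, by 1.53 and 1.15 at 1 h and by 1.76 and 1.65 at 2 h. Both were also called at 0.03 nM 2 h, with 0.39 and 0.45. The decapping enzyme Dcp2 rose by 1.66 at 2 h. Pnrc2, which links Upf1 to decapping, fell by 1.15 at 1 h and by 0.95 at 2 h. The central helicase Upf1 had -0.02 and 0.06, with edgeR adjusted p-values of 0.852 and 0.519, and its kinase Smg1 had 0.12 and 0.29, with 0.714 and 0.294. Scaled by library totals, Upf1 had -0.39 and -0.49, with edgeR adjusted p-values of 0.00144 and 0.000159. Smg1 had -0.25 and -0.27 on that scale and was not called. With library totals the counts turned to 2 higher and 9 lower at 1 h and to 5 higher and 7 lower at 2 h. On that scale 9.91% of all genes were called higher and 52.3% lower at 1 h, and 14.7% and 61.1% at 2 h.

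**Figure D4:**
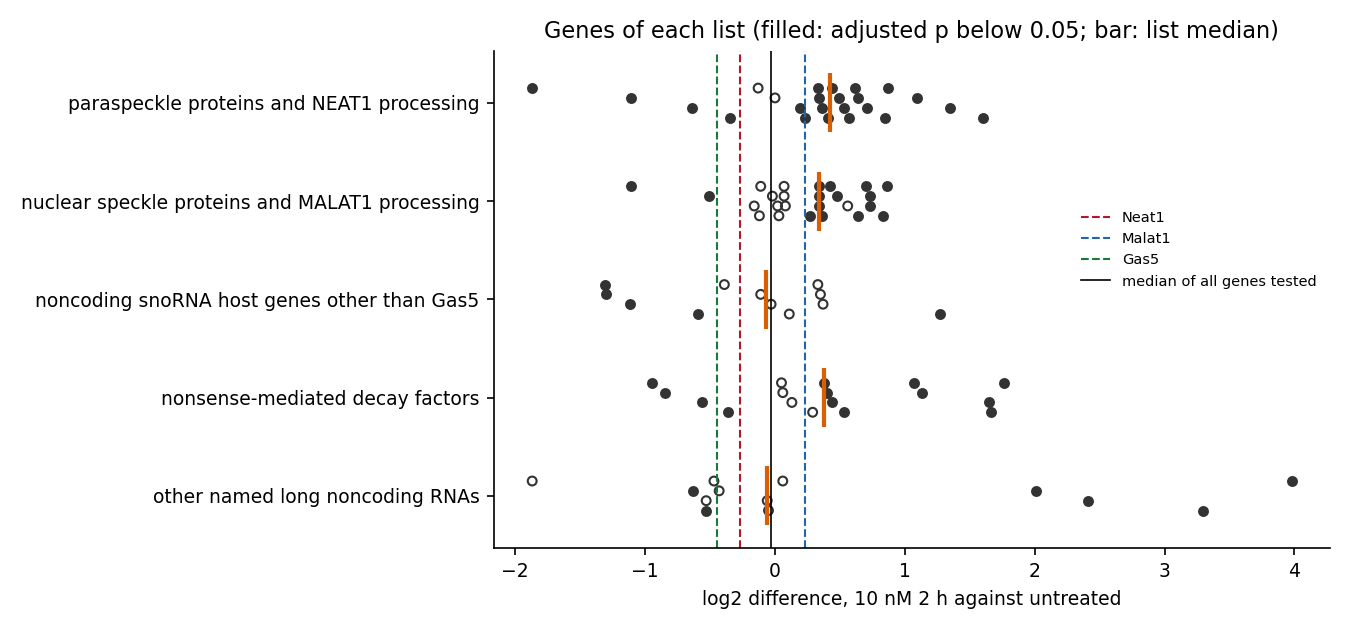
Log2 difference at 10 nM 2 h against untreated (horizontal axis) of each tested gene in the 5 lists (vertical axis), filled where the adjusted p was below 0.05, with orange bars for list medians, dashed lines for Neat1, Malat1 and Gas5 and a solid line for the median of all genes tested. The joint list of paraspeckle and Neat1 3' end genes has a median of 0.42. The Neat1 value, given without a test, is -0.27, and Gas5 at -0.45 lies among the other small nucleolar RNA hosts.

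Genes within 200 kb of Malat1 and Neat1 did not follow either RNA as a block. Of 21 other genes there 19 were tested. At 10 nM 2 h against untreated 4 were called higher and 8 lower, beside 28.6% and 30.1% of all genes, and at 10 nM 1 h 4 were higher and 6 lower, beside 18.5% and 18.3%. At 0.03 nM 1 h, where Neat1 rose, the 1 gene called was Cdc42ep2, beside 1.53% of all genes. At 0.03 nM 2 h, where Neat1 was also higher, 4 were called higher and 1 lower, beside 6.45% and 3.37% of all genes. The lower one was Slc25a45, with -0.32. Cdc42ep2 encodes an effector of the GTPase Cdc42 and starts 79.3 kb upstream of the start site of Neat1. It rose in all 4 groups, by 1.59 and 3.14 at 0.03 nM and by 4.18 and 4.50 at 10 nM for 1 h and 2 h. Rela, the p65 subunit of NF-kB, had its start site 208.0 kb downstream of that of Neat1 and rose by 0.71 at 0.03 nM 2 h and by 1.83 and 2.07 at 10 nM. The chromatin factor gene Dpf2 rose by 0.71 and 1.00 at 10 nM. The nearest gene upstream of Neat1, Frmd8, had -0.04 at 0.03 nM 1 h with an edgeR adjusted p of 0.999 and fell by 0.24 and 0.61 at 10 nM. Next to it Slc25a45, a mitochondrial carrier, fell by 0.63 and 1.67 at 10 nM.

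Around Gas5, 7 of 10 other genes were tested. At 10 nM 2 h 1 was called higher and 3 lower, beside 28.6% and 30.1% of all genes, and at 10 nM 1 h only the higher one was called, beside 18.5% and 18.3%. That gene was Rc3h1, which encodes the mRNA-decay protein Roquin, with 0.65 at 1 h and 0.90 at 2 h. Among the lower ones at 2 h were Cenpl with -0.63 and Klhl20 with -1.40. Zbtb37 starts 0.9 kb from Gas5 on the opposite strand and had 0.04 at 1 h and 0.19 at 2 h, with edgeR adjusted p-values of 0.932 and 0.534. Mir5117 and Snord47, inside Gas5, had 117 and 143 counts over all 10 libraries against 22514 for Gas5, and neither was called.

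**Figure D5:**
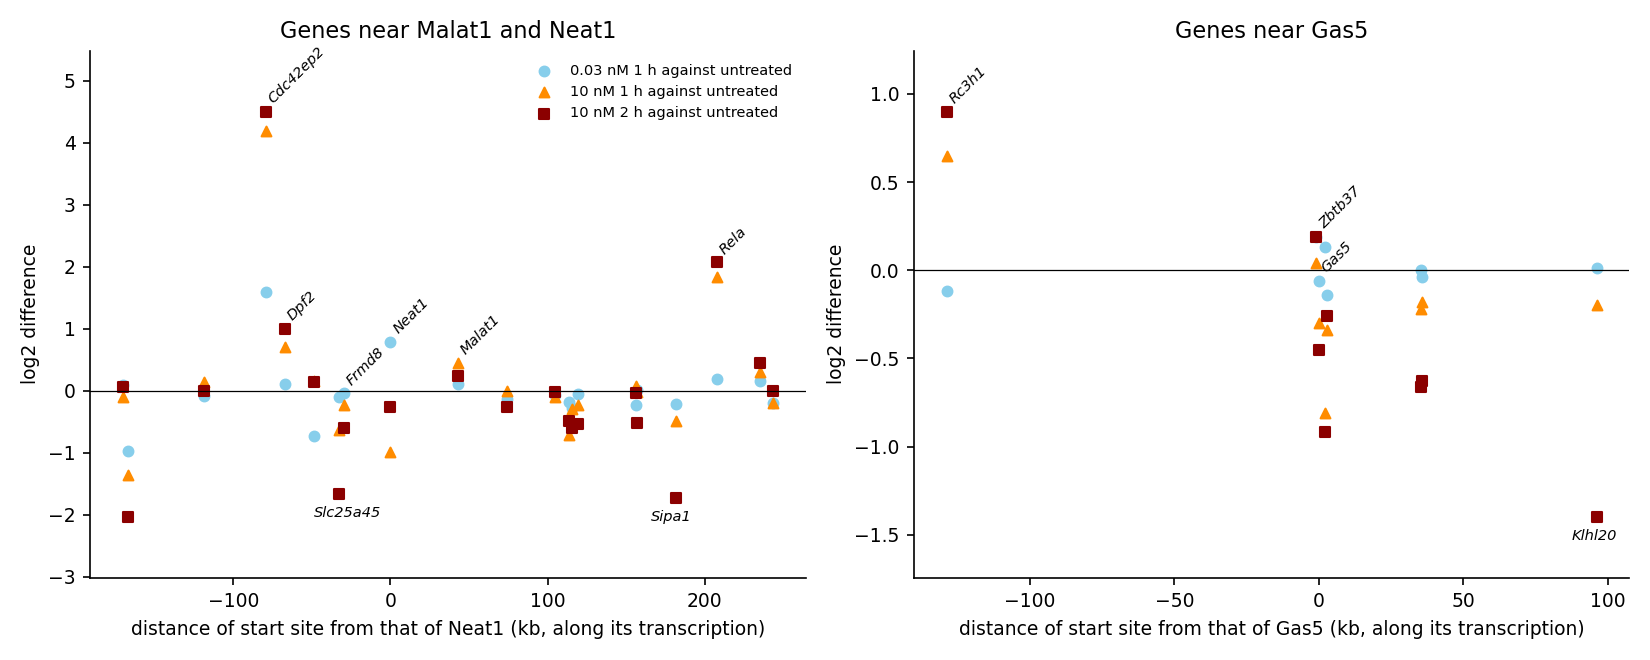
Log2 difference (vertical axes) at 0.03 nM 1 h, 10 nM 1 h and 10 nM 2 h against untreated of the tested genes within 200 kb of Malat1 and Neat1 (left) and of Gas5 (right), by the distance of each start site from that of Neat1 or Gas5 in kb along its transcription (horizontal axes). Cdc42ep2 at -79.3 kb rises in all 3 comparisons, up to 4.50. Between it and Neat1, Frmd8 and Slc25a45 are lower at 10 nM 2 h, Dpf2 at -67.4 kb is higher (1.00) and Tigd3 was not called.

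The genes most like each RNA over the 10 libraries were found by the root mean square difference of log2 CPM after centring each gene on its own mean, among 10332 genes with a mean log2 CPM of at least 1. All libraries are shared, so this likeness includes what the libraries have in common. For Neat1 the nearest were 6330416G13Rik, Calhm2, Atp6v1g2, 2700062C07Rik and Zfp867, at differences of 0.253 to 0.264, while Neat1 itself varied by 0.652 about its mean. Atp6v1g2, a subunit of the vacuolar proton pump, had means of 3.66 CPM untreated, 4.34 and 4.12 at 0.03 nM and 1.78 and 2.04 at 10 nM. For Malat1 they were Usp32, Bbx, Wdfy2, Pbrm1 and Qk, at 0.096 to 0.099 against a spread of 0.269. These 5 shared the wide spread at 0.03 nM 2 h, as for Bbx with 113 ± 39.0 CPM (SD, n = 2) there and 132 ± 0.289 in untreated cells. For Gas5 they were Arpc5l, Ssbp1, Mrps23, 2610027L16Rik and Tsnax, at 0.053 to 0.069 against a spread of 0.222. Ssbp1, a mitochondrial DNA-binding protein, had means of 14.2 CPM untreated, 13.6 and 14.5 at 0.03 nM and 10.6 and 10.1 at 10 nM. Gas5 thus had closer companions than Neat1 on this scale.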

How the data were processed

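Poly(A) RNA libraries were made with a strand-marking kit and sequenced on an Illumina NextSeq instrument, per the labels' protocols. The submitters' processing notes name, without their roles, featureCounts 1.4.5-p1, TopHat2 2.0.11, DESeq2, bcl2fastq 2.15.0.4 and the mm9 build. The authors deposited raw read counts per gene with the exonic length of each gene model, and regularised log2 (rlog) values. From the counts, edgeR 4.0.16 (R 4.3.3) was fitted to all 10 libraries with a mean per group, TMM scaling, its default filter on low counts (12918 of 23284 genes kept) and robust quasi-likelihood tests, with Benjamini-Hochberg adjustment over the genes tested. SE is the log2 difference over the root of F. RPKM used the deposited lengths. The procedure was tested on simulated data: at a log2 change of 1 in 10 nM 1 h against untreated, 87% of 100 changed genes among 12721 were called, and 49% at 0.5. Of 144 calls there, 8 were false. Unlike these data, the simulation changed few genes, as many up as down, and held no trend with length. These rates may therefore differ from those in the real libraries.

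The members and gene lists were chosen with earlier results of these data known. Genes named are the members, their neighbours within 200 kb, the 5 genes most like each, up to 3 called genes of each list by smallest p per comparison, and a few core genes whatever their value; some genes under this rule are not reported here. The labels give the experiment of each library, which pairs the groups. Over 10333 genes, deviations of libraries of the same experiment correlated between groups at -0.106 to 0.472 (10 pairs, median 0.272). Alternatives were library totals, DESeq2 1.42.0 and its size factors, no filter, each library left out, only the groups compared, the experiment as a block, a correction for exonic length, and limma 3.58.1 on the rlog values.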

Additional observations from a re-analysis of the deposited data

Results flagged for a closer look

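Neat1 moved in opposite directions at the 2 doses. Both experiments were higher than untreated at 0.03 nM and lower at 10 nM, and the log2 difference of 10 nM from 0.03 nM was -1.77 at 1 h and -0.89 at 2 h. With time, both experiments were lower at 2 h than at 1 h at 0.03 nM (-0.28 and -0.06) and higher at 10 nM (0.9 and 0.56), a difference of 0.88 between the changes. These differences were not tested, since Neat1 was chosen for its level at 10 nM, and the change with time at 0.03 nM did not pass its own test. Without the 0.03 nM 2 h library of experiment 1 that change was 0.01.

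Gas5 responded differently to the doses at 2 h, with a log2 difference of 10 nM from 0.03 nM of -0.59 (edgeR adjusted p = 0.000139, lower in both experiments). Groups of 2 libraries do not allow a test for outlying libraries.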

How the results depend on the processing

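Values are log2 differences, in the order of comparison. With library totals, Neat1 at 10 nM was -1.35 (1 h) and -0.82 (2 h) against untreated, -2.13 and -1.38 against 0.03 nM and 0.53 from 1 h to 2 h. Malat1 turned to -0.32 at 10 nM 2 h against untreated and to -0.01 and -0.20 between doses, and Gas5 was called between doses at 1 h (-0.60), from 1 h to 2 h at 10 nM (-0.34) and for the interaction (-0.48). On the deposited rlog values, whose differences are shrunken, Neat1 had -0.64, -1.20, -0.59, 0.48 and 0.61 for 10 nM 1 h against untreated, the doses at 1 h and 2 h, the times at 10 nM and the interaction, and the Malat1 interaction was 0.01. With the length correction, Neat1 at 0.03 nM was 0.79 and 0.66 with neither called, Malat1 was 0.04 both at 0.03 nM 2 h and for the interaction, and Gas5 was called between doses at 1 h (-0.20) and for the interaction (-0.31). With only the groups compared, Neat1 at 0.03 nM 2 h (0.63) was not called, while Malat1 was called at 10 nM (0.46 and 0.24 against untreated, 0.33 between doses at 1 h, -0.25 between times) and Gas5 between doses at 1 h (-0.25). The replicate block changed no call of the members, with Neat1 at 0.79 and 0.62 at 0.03 nM. The block with the length correction gave Malat1 0.03 at 0.03 nM 2 h and 0.05 for the interaction, and called Gas5 between doses at 1 h (-0.20) and for the interaction (-0.31).

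Leaving out 1 library at a time, Neat1 ran from 0.64 to 0.94 and 0.45 to 0.79 at 0.03 nM, -0.34 to 0.01 between those times, -0.41 to -0.11 at 10 nM 2 h against untreated and 0.58 to 0.87 between times at 10 nM. Malat1 ran from -0.50 to 0.29 at 0.03 nM 2 h, -0.61 to 0.18 between times at 0.03 nM, 0.35 to 0.55 and 0.15 to 0.31 at 10 nM, 0.24 to 0.44 and -0.08 to 0.73 between doses, -0.32 to -0.12 between times at 10 nM and -0.42 to 0.38 for the interaction. Gas5 ran from -0.14 to 0.02 at 0.03 nM 1 h, 0.12 to 0.29 between times at 0.03 nM, -0.35 to -0.24 at 10 nM 1 h, -0.32 to -0.15 between doses at 1 h and -0.44 to -0.28 for the interaction. The largest moves of the Malat1 error came from leaving out either 0.03 nM 2 h library. Of 513 values under alternatives, 444 kept their direction and side of the threshold or moved by less than the spread; the causes of the other changes were not tested. Counts of genes called at 0.03 nM ranged widely: 78 to 350 at 1 h, 650 to 3128 at 2 h, the latter with experiment 1 of that group left out, and 198 to 2833 between times. With library totals 8035 genes were called at 10 nM 1 h against untreated and 7789 between doses at 1 h. The interaction gave 1897 without the 10 nM 1 h library of experiment 1. Depth was not limiting for the members, the lowest total being 33179599 counts.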

Other observations

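Other named long noncoding RNAs moved at 10 nM without a common direction. Of 31 listed, 19 were in the table and 13 were tested, and 4 were called higher and 2 lower at 10 nM 2 h against untreated, with a median log2 difference of -0.06. Over all genes 28.6% were called higher and 30.1% lower there. With library totals the count was 4 higher and 7 lower, with a median of -0.62 beside -0.59 over all genes. On that scale 14.7% of all genes were called higher and 61.1% lower. AW112010, an RNA known from activated immune cells, stood at 5.72 and 6.63 CPM untreated, 9.37 and 12.2 at 10 nM 1 h and 89.8 and 105 at 10 nM 2 h, a log2 difference of 3.98 at 2 h with an edgeR adjusted p of 2.99e-06. Mir17hg, the host of the miR-17 cluster, rose by 2.07 and 2.41 at 10 nM and by 0.75 at 0.03 nM 2 h. Airn had 1.11 CPM untreated and 4.49 at 10 nM 2 h, and Dnm3os was near the detection limit with 0.0597 CPM untreated and 0.622 at 10 nM 2 h. Peg13 fell by 0.63 and Kcnq1ot1 by 0.53 at 10 nM 2 h. Tug1 stood between 71.4 and 84.2 CPM in all 10 libraries, with an edgeR adjusted p of 0.655 for 10 nM 2 h against untreated. With library totals Tug1 fell by 0.61 there, with an edgeR adjusted p of 7.24e-05.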
